A study of Mus musculus with 33 samples.

Results

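Control preNeu were compared with control proNeu2, the last step of the neutrophil series that runs from Ly6C- granulocyte-monocyte progenitors (GMP) through proNeu1 and proNeu2 to preNeu in mouse bone marrow. The members are the 3 libraries labelled preneu and the 3 labelled proneu2, 6 of the 33 bulk RNA sequencing libraries of the series, chosen by the cell type label alone. The controls are called WT and had no sepsis, and each group holds 3 biological replicates of sorted cells. The proNeu2 gate is given by a figure of the study and the preNeu gate was taken over from earlier work. Strain, sex, age and the number of mice per library are not given in the sources used here. The same stages from septic mice serve as a second pair, with 3 septic proNeu2 and 3 septic preNeu libraries whose mice had caecal ligation and puncture of mid-grade severity 3 days earlier, an operation that lets gut bacteria into the abdomen.

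Neutrophils are made in the bone marrow from granulocyte-monocyte progenitors through dividing precursor stages and then mature without dividing. Along this path the cells fill their granules in waves. Azurophil (primary) granules with myeloperoxidase and serine proteases come first, specific (secondary) granules with lactoferrin and other antimicrobial proteins follow, and gelatinase granules and secretory vesicles with receptors and adhesion proteins come last. The granule a protein enters depends largely on when its gene is expressed. proNeu are early committed precursors, and preNeu are later precursors that still proliferate. C/EBP factors, GFI1 and PU.1 are transcription factors of this lineage, and MYC drives ribosome production and growth in dividing progenitors.

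Levels are counts relative to the library total (CPM) scaled by the trimmed mean of M values (TMM), a factor that corrects for a few very abundant genes taking up a library. Changes are log2 fold changes of preNeu over proNeu2 with their standard error (SE), so that a positive value is a higher level in preNeu. Values of 3 libraries are given in the order of replicates 1, 2 and 3, numbers given here in accession order, which name a library and pair nothing. A gene was called when its p from edgeR's quasi-likelihood test, adjusted by the Benjamini-Hochberg method over the 18198 genes tested, was under 0.05. In bulk samples, fewer cells of a type and less RNA per cell cannot be told apart. The 6 libraries held 5517734 to 22677438 counts; preNeu replicate 3 was the shallow one with 5517734, and the others had 19988107 or more. Correlations of log2 CPM across genes were 0.945 to 0.953 between proNeu2 libraries, 0.928 to 0.953 between preNeu libraries and 0.893 to 0.924 between the groups.

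The defining granule genes went with the labels in every library. Genes of azurophil granule proteins took 9.73%, 10.1% and 9.56% of all counts in proNeu2 and 1.15%, 1.28% and 2.36% in preNeu. Genes of specific granule proteins took 1.07%, 0.814% and 0.695% in proNeu2 and 14.7%, 14.4% and 11.3% in preNeu. The groups did not overlap in either share, and the exact two-sided permutation test gave p = 0.1 for each, the smallest value that 3 against 3 libraries allow. The preNeu library with the most azurophil and the least specific granule RNA was replicate 3.

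**Figure D1:**
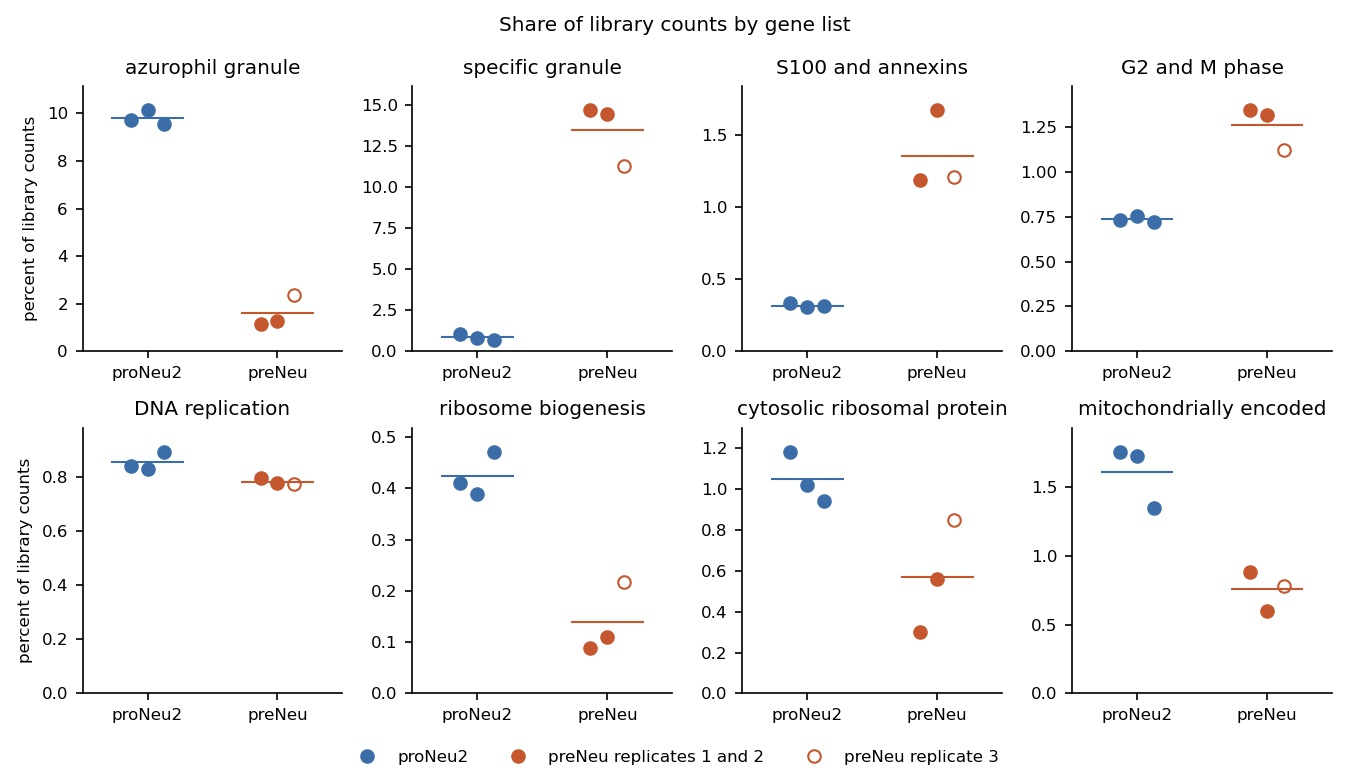
Percent of each library's counts in 8 gene lists, on a linear axis from 0 in each panel. Points are the 3 proNeu2 and 3 preNeu libraries with preNeu replicate 3 as an open circle, the line is the group mean, azurophil granule genes lie at 9.56% to 10.1% in proNeu2 and 1.15% to 2.36% in preNeu, and specific granule genes lie at 0.695% to 1.07% and 11.3% to 14.7%.

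The shallow library stood part of the way between the groups. Each library was placed, with that library left out of the fit that chose the genes, over genes called with at least a 2-fold difference, and a library at its own group's mean lies 100% of the way from the other group. The own group's mean was that of its other libraries. The 100% mark for preNeu replicates 1 and 2 therefore includes replicate 3, so the preNeu positions do not share one reference. preNeu replicate 1 lay at a median of 98.8%, replicate 2 at 108% and replicate 3 at 67.5%, and the proNeu2 libraries lay at 89.4%, 99.6% and 94.0%. For replicate 3 the position was 80.1% over genes higher in preNeu and 51.9% over genes lower in preNeu, and 92.9% of its genes lay on the preNeu side of the proNeu2 mean. Among the 5060 genes called in all, replicate 3 was the preNeu library nearest to proNeu2 for 2934 (58.0%), replicate 1 for 1568 and replicate 2 for 558. Depth, sort and mouse cannot be told apart in a single library.

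**Figure D2:**
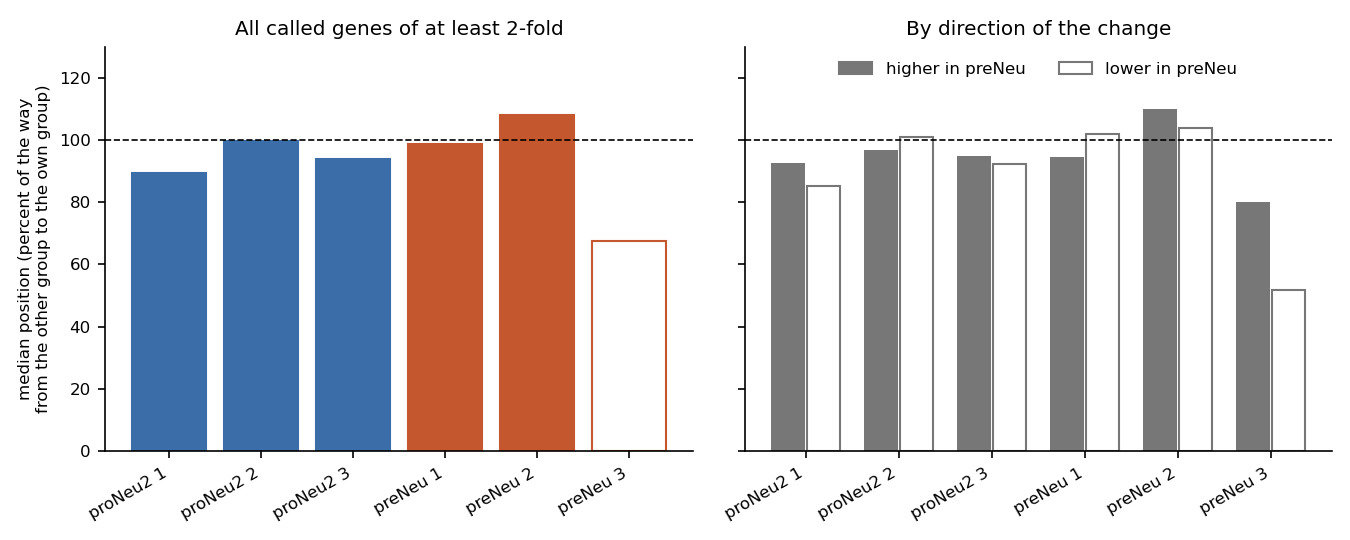
Left, median position of each library in percent of the way from the other group's mean to its own group's mean, with that library left out; bars start at 0 and the dashed line marks 100%. Right, the same over genes higher and genes lower in preNeu, where preNeu replicate 3 lies at 80.1% and 51.9% and the other 5 libraries lie between 85.3% and 110%.

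Of the 18198 genes tested, 5060 (27.8%) were called, 2377 (13.1%) higher and 2683 (14.7%) lower in preNeu. A change of at least 2-fold was reached by 1469 of the called genes upward (8.07% of those tested) and by 1619 downward (8.9%). At 16-fold or more there were 270 rises and 166 falls, and at 64-fold or more 133 rises and 74 falls. All of these falls and nearly all of the 64-fold rises fail the naming rule used below. They fail through low level, overlapping libraries or an excluded class of gene. Rises of 16-fold or more that meet its limits of level and overlap include Lyz2, Ngp and Camp, given below. Under that rule the largest fall was -3.69 in log2, less than 16-fold, and the 12th largest rise was 5.64, less than 64-fold. The median log2 change over all tested genes was 0.00. When libraries were scaled by their totals alone, the median moved to -0.183 and the calls to 1760 higher and 3529 lower, so that 33.3% in place of 47.0% of the calls were rises. With preNeu replicate 3 left out, 5146 genes were called, 4569 of the 5060 (90.3%) were called again in the same direction, and 3 had the other sign. Counts of called genes in the groups below are to be read against the 13.1% higher and 14.7% lower of all genes, and most are followed by the count without preNeu replicate 3. Of all tested genes, 17.5% lay higher and 18.2% lower in preNeu without overlap between the groups. Most genes printed below were picked for large called changes, so groups that lie apart in them follow largely from that choice. Called shares were larger under a stricter filter on level. Of the 11317 genes that reached 5 CPM in at least 3 of the 33 libraries, in any group, 2599 were called higher and 2509 lower when only these were fitted. For lists of well expressed genes this is a closer background, though some of the 11317 may be low in proNeu2 and preNeu.

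The largest rises, among called genes of at least 20 CPM whose libraries did not overlap, were led by receptors and membrane proteins of later neutrophils. Fpr2, a formyl peptide receptor that senses bacterial peptides, was at 0.576, 0 and 0 CPM in proNeu2 and 37.3, 24.3 and 26.8 CPM in preNeu, a log2 change of 7.19 ± 1.16 (adjusted p = 2.53e-05). Mmp25, a membrane-bound matrix metalloproteinase of neutrophils, was at 1.82, 1.68 and 1.21 CPM in proNeu2 and 276, 234 and 115 CPM in preNeu (7.04 ± 0.91, adjusted p = 6.7e-07). Ly6g, the surface antigen by which mouse neutrophils are usually sorted, was at 2.11, 0 and 0 CPM in proNeu2 and 66.3, 109.6 and 61.2 CPM in preNeu (6.79 ± 1.18, adjusted p = 6.64e-05). Each gene was near 0 in proNeu2, and the separation of the groups follows from how the genes were chosen. For Fpr2 and Ly6g, proNeu2 replicate 1 was the only proNeu2 library with counts, so the size of their fold rests on it. The other genes in this set, beside Lcn2 and Ltf below, were Ifnlr1, a subunit of the interferon lambda receptor, with a log2 change of 6.59, the aldehyde dehydrogenase gene Aldh3b3 (6.32), the phospholipase-like Plbd1 (6.09), the Ras activator Rasgrp4 (6.02), Cd101 (5.88), Ifitm6 (5.80) and Trp53inp2 (5.64).

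The largest falls under the same rule came from genes with varied roles. Gcsh, a subunit of the mitochondrial glycine cleavage system, was at 25.1, 23.6 and 40.1 CPM in proNeu2 and 0, 0.768 and 9.001 CPM in preNeu (-3.69 ± 0.68, adjusted p = 0.000103; -6.25 without preNeu replicate 3), and was not called when only the 6 libraries were fitted (-3.45, adjusted p = 0.0651). Ndrg2 was at 86.97, 58.2 and 69.4 CPM in proNeu2 and 4.91, 5.15 and 10.2 CPM in preNeu (-3.47 ± 0.50, adjusted p = 4.1e-06). Pdcd4, an inhibitor of the translation initiation helicase eIF4A, was at 119, 235 and 119.8 CPM in proNeu2 and 8.499, 5.76 and 38.2 CPM in preNeu (-3.30 ± 0.41, adjusted p = 3.57e-07; -4.49 without preNeu replicate 3). Replicate 3 was the preNeu library with the highest level in all 3 genes. The rule admits only genes without overlap, so the separation of the groups is no result here. Il12a, which encodes a subunit of interleukin 12, changed by -3.33, Flt1, a receptor of vascular endothelial growth factor, by -3.28, Ubxn11 by -3.20, Ms4a6b by -3.26 and Mettl1, an RNA methyltransferase, by -3.04.

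Azurophil granule genes fell, with 3 exceptions. Of the 12 genes tested, 9 fell and 3 rose, with a median log2 change of -1.22 (9 and 3 without preNeu replicate 3, median -1.57). Mpo, which encodes myeloperoxidase, was at 59440, 66760 and 69720 CPM in proNeu2 and 6792, 7630 and 13920 CPM in preNeu (-2.79 ± 0.16, adjusted p = 4.65e-13). Elane, neutrophil elastase, was at 27490, 27010 and 20220 CPM in proNeu2 and 3415, 3159 and 5802 CPM in preNeu (-2.59 ± 0.23, adjusted p = 1.62e-09). Ctsg, cathepsin G, was at 2513, 2212 and 1694 CPM in proNeu2 and 110.4, 170.5 and 659.6 CPM in preNeu (-2.78 ± 0.38, adjusted p = 1.49e-06; -3.95 without preNeu replicate 3). Replicate 3 was the highest preNeu library in the 3 genes, and every preNeu value was below every proNeu2 value. Prtn3, proteinase 3, changed by -1.98 ± 0.29, and Srgn, the proteoglycan serglycin that packs granule proteases, by -2.20 ± 0.25. Among the genes that rose, Man2b1 encodes a lysosomal enzyme that degrades sugar chains, and Serpinb1a encodes an inhibitor of elastase and cathepsin G. Serpinb1a was at 1088, 1012 and 999.7 CPM in proNeu2 and 1531, 2186 and 1726 CPM in preNeu (0.81 ± 0.15). Man2b1 changed by 0.51 ± 0.12 and was not called when only the 6 libraries were fitted (0.50, adjusted p = 0.0628).

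The letters GAGGAAGT, which PU.1 binds, were counted on both strands of RefSeq promoter windows on GRCm38.p6 that ran from 250 bases before to 50 bases after the annotated start. They stood in 5 of the 10 windows of the 9 azurophil genes with an entry, against 3.2% of all 32851 windows of 27025 genes. Over the 250 bases before the start alone they stood in 4 of the 10 and in 2.44% of all. Among genes called at least 2-fold higher the share was 5.14%, and among those called at least 2-fold lower 3.95%. It was 13.3% for specific granule genes, 10% for ribosome biogenesis, 5.56% for G2 and mitosis and 0% for DNA replication. The 250 bases before the start of Mpo and Elane, the azurophil genes with the highest CPM in proNeu2, are shown because both hold a match, in capitals, written 5′ to 3′ along the gene.
Mpo (chr11:87793534-87793783, plus strand): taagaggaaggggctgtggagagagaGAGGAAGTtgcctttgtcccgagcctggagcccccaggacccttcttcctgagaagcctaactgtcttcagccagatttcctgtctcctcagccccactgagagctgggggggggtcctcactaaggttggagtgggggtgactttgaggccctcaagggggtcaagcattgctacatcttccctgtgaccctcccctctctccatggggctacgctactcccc
Elane (chr10:79886062-79886311, plus strand): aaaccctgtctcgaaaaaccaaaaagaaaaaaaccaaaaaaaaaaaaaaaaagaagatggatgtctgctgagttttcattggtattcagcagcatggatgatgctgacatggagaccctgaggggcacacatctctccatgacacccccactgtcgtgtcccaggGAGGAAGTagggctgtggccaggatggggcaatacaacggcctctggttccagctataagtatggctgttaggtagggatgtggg
The match began 224 bases before the start of Mpo and 85 bases before that of Elane. A match describes the letters, and PU.1 binding was not measured.

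**Figure D3:**
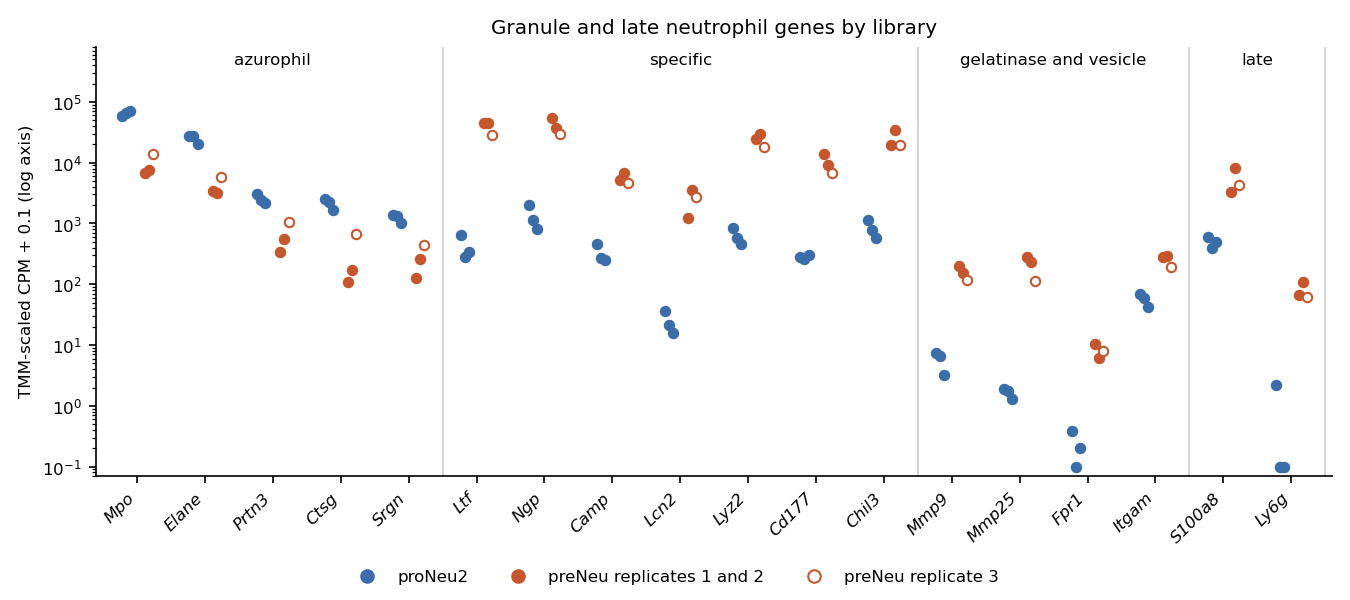
TMM-scaled CPM of 18 granule and late neutrophil genes in each library, on a log axis after adding 0.1 CPM so that 0 can be drawn. Filled points are libraries of proNeu2 and preNeu, and the open circle is preNeu replicate 3. The 5 azurophil genes on the left lie lower in preNeu and the other 13 genes lie higher, with no overlap between the groups. Ltf, Lcn2, Mmp25 and Ly6g were named by a rule that requires this. Of all tested genes, 17.5% lay higher and 18.2% lower without overlap.

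Specific granule genes rose without exception, 17 of 17, with a median log2 change of 4.10 (17 without preNeu replicate 3, median 4.31). Ltf, lactoferrin, was at 653, 281 and 334 CPM in proNeu2 and 44840, 44360 and 28750 CPM in preNeu (6.54 ± 0.53, adjusted p = 2.58e-10). Lcn2, lipocalin 2, which sequesters bacterial iron carriers, was at 36.9, 21.2 and 15.6 CPM in proNeu2 and 1239, 3543 and 2702 CPM in preNeu (6.67 ± 0.38, adjusted p = 2.49e-13). Ngp, neutrophilic granule protein, was at 1994, 1129 and 801 CPM in proNeu2 and 53790, 37120 and 29600 CPM in preNeu (4.94 ± 0.56, adjusted p = 8.01e-08). In Ltf and Ngp, proNeu2 replicate 1 was the highest of its group and preNeu replicate 3 the lowest of its own, while Lcn2 was lowest in preNeu replicate 1. Camp, the precursor of the antimicrobial peptide cathelicidin, was at 454, 266 and 248 CPM in proNeu2 and 5141, 6844 and 4585 CPM in preNeu (4.10 ± 0.42). Cd177, a neutrophil surface glycoprotein, changed by 5.11 ± 0.46, Chil3, a chitinase-like protein, by 4.89 ± 0.44, and Lyz2, lysozyme, by 5.26 ± 0.27.

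Along the 4 control stages Ltf averaged 21.9 ± 4.52 CPM in Ly6C- GMP, 936 ± 372 CPM in proNeu1, 423 ± 201 CPM in proNeu2 and 39320 ± 9150 CPM in preNeu (mean ± SD, n = 3 each). Mpo averaged 34440 ± 4160, 55720 ± 2850, 65300 ± 5290 and 9449 ± 3900 CPM in the same order. Mpo thus had its highest mean in proNeu2 and Ltf in preNeu.

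The C/EBP letters TTGCNNAA, counted on both strands, stood in 6 of 15 windows of the 14 specific granule genes with an entry, in 0 of the 10 azurophil windows and in 10.8% of all windows. Among genes called at least 2-fold higher the share was 9.7%, and among those called at least 2-fold lower 9.66%. Ltf and Ngp are shown as 2 of the genes with the most RNA in preNeu that hold a match, in capitals.
Ltf (chr9:111019042-111019291, plus strand): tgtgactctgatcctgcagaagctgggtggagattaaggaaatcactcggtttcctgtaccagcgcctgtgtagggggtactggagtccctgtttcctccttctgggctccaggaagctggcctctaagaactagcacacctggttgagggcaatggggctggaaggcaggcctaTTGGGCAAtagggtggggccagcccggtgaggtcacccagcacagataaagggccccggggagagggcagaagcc
Ngp (chr9:110419558-110419807, plus strand): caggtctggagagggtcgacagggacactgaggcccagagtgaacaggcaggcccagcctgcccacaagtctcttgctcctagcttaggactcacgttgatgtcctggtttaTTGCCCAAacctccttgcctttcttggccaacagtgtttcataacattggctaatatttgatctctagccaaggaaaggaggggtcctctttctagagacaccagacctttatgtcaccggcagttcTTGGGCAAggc
The match of Ltf began 75 bases before the start, and those of Ngp began 138 and 11 bases before it.

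Gelatinase granule and secretory vesicle genes were less uniform. Of 15 tested, 8 rose, 3 fell and 4 were not called (median 2.15; 9 and 2 without preNeu replicate 3). Mmp9, the gelatinase that names the granule, was at 7.39, 6.53 and 3.13 CPM in proNeu2 and 198, 156 and 119 CPM in preNeu (4.79 ± 0.71, adjusted p = 5.68e-06). Fpr1, a second formyl peptide receptor, was at 0.288, 0 and 0.101 CPM in proNeu2 and 10.2, 5.92 and 7.83 CPM in preNeu (5.86 ± 1.19). Itgam, the alpha chain of the integrin Mac-1, was at 69.2, 60.1 and 42.6 CPM in proNeu2 and 281, 291 and 192 CPM in preNeu (2.15 ± 0.31). In these 3 genes no library of one group reached the other. Cd14, a co-receptor for bacterial lipopolysaccharide, fell, at 6.62, 11.5 and 7.17 CPM in proNeu2 and 2.17, 2.63 and 2.74 CPM in preNeu (-1.76 ± 0.47, adjusted p = 0.00534), but was not called by limma (-1.59, adjusted p = 0.157).

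Genes of late neutrophils rose in 20 of 30 cases and fell in 0 (median 1.79; 21 and 1 without preNeu replicate 3). S100a9, a subunit of calprotectin, was at 227, 159.9 and 183 CPM in proNeu2 and 1542, 4826 and 2669 CPM in preNeu (3.99 ± 0.41). Its partner S100a8 was at 602, 389 and 491 CPM in proNeu2 and 3238, 8220 and 4257 CPM in preNeu (3.41 ± 0.31). In both, replicate 1 was the lowest preNeu library and still above every proNeu2 library. Padi4, the enzyme that converts histone arginine to citrulline, was at 49.2, 30.01 and 31.6 CPM in proNeu2 and 616, 663 and 429.5 CPM in preNeu (3.95 ± 0.26, adjusted p = 6.06e-12). Trem3, a receptor of myeloid cells, had overlapping groups at 655, 728 and 526 CPM in proNeu2 and 773, 552 and 511 CPM in preNeu and was not called (-0.06 ± 0.16, adjusted p = 0.862). Of 16 S100 and annexin genes 8 rose and 3 fell (8 and 3 without preNeu replicate 3). Anxa2, annexin A2, was at 138, 136 and 137 CPM in proNeu2 and 642, 799.7 and 593 CPM in preNeu (2.31 ± 0.13, adjusted p = 2.49e-13), and those that fell were S100a1 (-1.25 ± 0.24), Anxa6 (-0.63 ± 0.17) and Anxa3 (-0.40 ± 0.09). Anxa6 (-0.63, adjusted p = 0.081) and Anxa3 (-0.41, adjusted p = 0.0738) were not called when only the 6 libraries were fitted.

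Markers of stem and early progenitor cells were mostly not called. Of 22 tested, 7 fell, 1 rose and 14 were not called (median -1.34; 9 and 1 without preNeu replicate 3). Kit, the stem cell factor receptor, was at 388, 353 and 437 CPM in proNeu2 and 225, 202 and 236 CPM in preNeu (-0.83 ± 0.19, adjusted p = 0.00112). Hoxa9, a homeobox factor of progenitors, was at 4.8, 3.78 and 7.77 CPM in proNeu2 and 0.114, 0.439 and 1.56 CPM in preNeu (-3.39 ± 0.61). Both genes were lower in every preNeu library. Cd34, a progenitor surface marker, was at 9.84, 10.3 and 13.7 CPM in proNeu2 and 5.36, 0.439 and 34.8 CPM in preNeu and was not called (0.04 ± 0.61, adjusted p = 1); without preNeu replicate 3 it fell (-1.99, adjusted p = 0.00234). Irf8, which directs progenitors towards monocytes and dendritic cells, was at 3.07, 9.29 and 4.54 CPM in proNeu2 and 4.11, 6.14 and 45.8 CPM in preNeu and was not called (1.55 ± 0.67, adjusted p = 0.0846), but it was without preNeu replicate 1 (2.06, adjusted p = 0.0264) or 2 (2.00, adjusted p = 0.0389) and it turned to -0.15 without replicate 3 (adjusted p = 0.934). In both genes the third preNeu library stood above all others.

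Transcription factors of the granulocyte lineage moved in both directions, 14 up and 9 down of 45 tested (14 and 9 without preNeu replicate 3), which became 11 up and 12 down when libraries were scaled by their totals alone. Cebpa, which starts granulocyte commitment, was at 29.5, 39.5 and 31.2 CPM in proNeu2 and 6.16, 12.7 and 16.2 CPM in preNeu (-1.54 ± 0.30, adjusted p = 0.000198). Gfi1, a transcriptional repressor without which neutrophils fail to form, was at 66.6, 88.2 and 55.3 CPM in proNeu2 and 24.01, 37.1 and 31.3 CPM in preNeu (-1.19 ± 0.28, adjusted p = 0.00188). Myb, a factor of dividing progenitors, was at 308, 402 and 299 CPM in proNeu2 and 105, 103 and 119 CPM in preNeu (-1.62 ± 0.24). The 3 genes were lower in each preNeu library. Cebpe, the C/EBP factor linked to specific granule genes, was at 493, 531 and 453 CPM in proNeu2 and 1220, 568 and 517 CPM in preNeu and was not called (0.64 ± 0.42, adjusted p = 0.278), with replicate 1 alone standing high. Cebpd was at 129.9, 145 and 116 CPM in proNeu2 and 284, 312 and 336 CPM in preNeu, with the groups apart but no call (1.25 ± 0.59, adjusted p = 0.116), although it was called by limma (1.28, adjusted p = 0.0313) and when only the 6 libraries were fitted (1.25, adjusted p = 0.000947). Spi1, which encodes PU.1, was likewise apart at 449, 377 and 399 CPM in proNeu2 and 660.0, 679 and 566 CPM in preNeu and was not called (0.64 ± 0.42, adjusted p = 0.275), but it was when only the 6 libraries were fitted (0.63, adjusted p = 0.0158). Cebpb, the C/EBP factor of emergency granulopoiesis, was at 0.048, 0.408 and 0.404 CPM in proNeu2 and 0, 0.329 and 5.28 CPM in preNeu, so that it was close to 0 outside the third preNeu library.

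Krüppel-like and AP-1 factors were among those that rose. Klf5 was at 22.1, 20.7 and 38.6 CPM in proNeu2 and 243, 134 and 133 CPM in preNeu (2.65 ± 0.33, adjusted p = 5.89e-07). Klf6 was at 51.6, 55.1 and 45.2 CPM in proNeu2 and 297, 263 and 192 CPM in preNeu (2.31 ± 0.27). Fosl2, an AP-1 subunit, was at 5.33, 2.55 and 3.94 CPM in proNeu2 and 50.5, 21.9 and 28.6 CPM in preNeu (3.10 ± 0.40). The groups were apart in each, and Id1, an inhibitor of basic helix-loop-helix factors, rose as well (2.36 ± 0.38). Zeb2, a zinc finger repressor, fell at 57.1, 43.5 and 42.05 CPM in proNeu2 and 12.4, 8.99 and 36 CPM in preNeu (-1.40 ± 0.30; -2.17 without preNeu replicate 3, which stood near proNeu2), and was not called when only the 6 libraries were fitted (-1.35, adjusted p = 0.0688).

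Myc fell, while Mxd1 and Mxd3, of the family that opposes MYC, rose. Myc was at 321, 334 and 389 CPM in proNeu2 and 45.7, 43.3 and 148 CPM in preNeu (-2.16 ± 0.31, adjusted p = 3.09e-06; -2.99 without preNeu replicate 3). Mxd1, which competes with MYC for the partner MAX, was at 70.7, 69.4 and 84.7 CPM in proNeu2 and 615, 643 and 468 CPM in preNeu (2.94 ± 0.26, adjusted p = 1.09e-09). Mxd3, a relative of Mxd1, was at 12.6, 7.297 and 10.5 CPM in proNeu2 and 86.98, 70.5 and 56.4 CPM in preNeu (2.82 ± 0.35, adjusted p = 4.04e-07). Replicate 3 was the preNeu library nearest to proNeu2 in the 3 genes, and the groups did not overlap. Max itself changed by 0.62 ± 0.14. Of the 14 genes of this network tested, 3 rose, 3 fell and 8 were not called, with 3 up and 4 down when scaled by totals alone. The other members that fell were Mga, a repressor that pairs with MAX (-0.63 ± 0.21), and Bin1, a MYC-interacting protein (-1.33 ± 0.39), so members that oppose MYC moved both ways. Neither was called when only the 6 libraries were fitted (-0.63, adjusted p = 0.121 and -1.30, adjusted p = 0.174) or without proNeu2 replicate 1 (-0.55, adjusted p = 0.0811 and -0.74, adjusted p = 0.168), nor Mga without preNeu replicate 2 (-0.39, adjusted p = 0.159) and Bin1 without preNeu replicate 1 (-0.93, adjusted p = 0.0669). Max was not called when only the 6 libraries were fitted (0.61, adjusted p = 0.0621).

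Ribosome biogenesis genes fell in 30 of 31 cases and none rose (median -1.45; 31 without preNeu replicate 3, median -1.80). Nop16, a nucleolar assembly factor, was at 113, 153 and 146 CPM in proNeu2 and 13.1, 10.7 and 26.6 CPM in preNeu (-3.09 ± 0.22, adjusted p = 3.74e-11). Utp20, of the small subunit processome, was at 43.6, 35.7 and 61.5 CPM in proNeu2 and 7.02, 6.53 and 10.96 CPM in preNeu (-2.57 ± 0.25). Gar1, of the pseudouridine-forming small nucleolar particles, was at 25.6, 29.04 and 32.3 CPM in proNeu2 and 2.51, 3.29 and 9.39 CPM in preNeu (-2.62 ± 0.57). No proNeu2 library reached a preNeu library in any of these genes. The member that was not called was Fbl, fibrillarin (-1.21 ± 0.47, adjusted p = 0.0551), which was called without preNeu replicate 3 (-1.80, adjusted p = 0.0103). Replicate 3 was the preNeu library nearest to proNeu2 in 28 of the 30 called genes, and the list took 0.0884%, 0.111% and 0.217% of preNeu counts against 0.389% to 0.470% in proNeu2.

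The E-box CACGTG, a palindrome bound by MYC and related factors, stood in 15% of the 1470 windows of genes called at least 2-fold lower, in 8.52% of the 1361 windows of genes called at least 2-fold higher and in 7.15% of all windows. Over the 250 bases before the start alone the shares were 10.8%, 7.64% and 6.02%. In the 30 windows of ribosome biogenesis genes the letters stood in 4 (13.3%), and over the 250 bases before the start alone in 1 (3.33%), so most of these windows do not hold them. MYC binding was not measured.

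Cytosolic ribosomal protein genes fell in 17 of 41 cases, none rose and 24 were not called (median -0.53; 26 fell without preNeu replicate 3, median -0.85). Only 9 fell without proNeu2 replicate 1 (median -0.44), and without preNeu replicate 1 there were 11 falls and 2 rises (median -0.23). Rpl5 was at 509.5, 506 and 464 CPM in proNeu2 and 135, 185 and 288 CPM in preNeu (-1.29 ± 0.16, adjusted p = 3.85e-07). Rpl4 was at 2427, 2509 and 2414 CPM in proNeu2 and 908, 1316 and 1644 CPM in preNeu (-0.93 ± 0.13). preNeu replicate 1 was the lowest of the 6 libraries for 40 of the 41 genes, and its share of counts in the list was 0.303%, against 0.561% and 0.847% in the other preNeu libraries and 0.942% to 1.18% in proNeu2. What sets this library apart here was not tested.

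Translation factors and tRNA synthetases fell in 21 of 31 cases and rose in 2 (21 and 1 without preNeu replicate 3). Eif3b, a subunit of initiation factor 3, was at 144, 185 and 162 CPM in proNeu2 and 48.7, 31.7 and 50.9 CPM in preNeu (-1.91 ± 0.18). Nars, asparaginyl-tRNA synthetase, was at 718, 803 and 837 CPM in proNeu2 and 274, 198 and 246 CPM in preNeu (-1.71 ± 0.13, adjusted p = 4.9e-11). The members that rose were the synthetases Cars (0.61 ± 0.16, not called when scaled by totals alone at 0.40) and Gars (0.39 ± 0.14), and the call of Gars was lost when proNeu2 replicate 1 or 2 or preNeu replicate 2 or 3 was left out (0.16 to 0.36). Eef1a1, an elongation factor, was at 3023, 2951 and 2606 CPM in proNeu2 and 1070, 3145 and 3660 CPM in preNeu and was not called, with replicate 1 again the low preNeu library.

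Genes of G2 and mitosis, with a median of 0.88, rose in 34 of 40 cases and fell in 1 (35 and 1 without preNeu replicate 3). Without proNeu2 replicate 3 or preNeu replicate 2 the rises were 28, and when scaled by totals alone 27. Mki67, the proliferation antigen Ki-67, was at 580.1, 620.1 and 557 CPM in proNeu2 and 1721, 1365 and 938 CPM in preNeu (1.20 ± 0.17, adjusted p = 3.21e-06). Ccna2, cyclin A2, was at 164, 128 and 174 CPM in proNeu2 and 436, 654 and 453 CPM in preNeu (1.73 ± 0.14). Cdc20, an activator of the anaphase-promoting complex, was at 349, 369.9 and 327 CPM in proNeu2 and 665, 713 and 526 CPM in preNeu (0.86 ± 0.13). The groups did not overlap in these 3 genes, and replicate 3 was nearest to proNeu2 for 31 of the 35 called members. Cdc25b, a phosphatase of entry into mitosis, changed by 2.31 ± 0.34, and Kif23, a kinesin of cytokinesis, by 1.96 ± 0.20. The member that fell was Pttg1, securin, at 17.8, 16.6 and 11.4 CPM in proNeu2 and 6.73, 3.29 and 3.52 CPM in preNeu (-1.74 ± 0.30, adjusted p = 4.39e-05). The list took 0.728%, 0.754% and 0.719% of counts in proNeu2 and 1.34%, 1.31% and 1.12% in preNeu, without overlap (exact p = 0.1).

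DNA replication genes did not shift together. Of 34 tested, 5 rose, 6 fell and 23 were not called, with a median of -0.09 beside 0.00 for all genes (5 and 6 without preNeu replicate 3, 4 and 10 when scaled by totals alone). Rpa2, a subunit of the single-strand binding complex, was at 199, 213 and 229.8 CPM in proNeu2 and 128, 102 and 112 CPM in preNeu (-0.91 ± 0.12). Cdc45, of the replicative helicase, was at 150.4, 83.8 and 152 CPM in proNeu2 and 192, 329 and 239 CPM in preNeu (0.97 ± 0.23). Rrm2, ribonucleotide reductase, was at 799, 839 and 895 CPM in proNeu2 and 1815, 1411 and 988 CPM in preNeu (0.73 ± 0.15; 0.48 without preNeu replicate 1). The list took 0.830% to 0.891% of counts in proNeu2 and 0.774% to 0.794% in preNeu, whereas its TMM-scaled sum was 8460, 8466 and 9157 CPM in proNeu2 and 9711, 9654 and 8351 CPM in preNeu, which overlap.

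The letters TTTGAA, the core of the cell cycle homology region (CHR) read by MuvB complexes, stood on either strand in 25 of 36 windows of the 34 G2 and mitosis genes with an entry (69.4%), in 4 of 33 windows of replication genes (12.1%) and in 17.9% of all windows. CCAAT stood in 72.2% and 63.6% of the windows of the same lists and in 37.4% of all windows. Cdc20 and Mki67 are shown as cell cycle genes that rose and hold TTTGAA, in capitals.
Cdc20 (chr4:118437344-118437593, minus strand): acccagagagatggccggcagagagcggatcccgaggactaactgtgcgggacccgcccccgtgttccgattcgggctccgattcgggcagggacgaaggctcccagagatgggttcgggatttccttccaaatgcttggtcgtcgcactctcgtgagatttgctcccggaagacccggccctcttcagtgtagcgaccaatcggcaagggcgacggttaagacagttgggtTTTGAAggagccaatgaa
Mki67 (chr7:135716380-135716629, minus strand): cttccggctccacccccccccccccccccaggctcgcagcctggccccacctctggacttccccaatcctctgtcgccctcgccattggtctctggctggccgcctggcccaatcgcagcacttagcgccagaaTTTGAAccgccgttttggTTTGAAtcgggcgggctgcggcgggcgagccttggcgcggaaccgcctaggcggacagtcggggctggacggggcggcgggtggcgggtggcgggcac
In Cdc20 the letters began 18 bases before the start, and in Mki67 they began 116 and 98 bases before it. Over the 250 bases before the start alone, 30.6% of the G2 and mitosis windows and 16% of all windows held TTTGAA.

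D-type cyclins moved in opposite directions. Ccnd2, cyclin D2, was at 197, 236 and 303 CPM in proNeu2 and 11.5, 17.3 and 63.8 CPM in preNeu (-3.06 ± 0.42, adjusted p = 1.64e-06; -4.11 without preNeu replicate 3). Ccnd3, cyclin D3, was at 534, 470.3 and 536 CPM in proNeu2 and 2235, 2303 and 1765 CPM in preNeu (2.03 ± 0.11, adjusted p = 8.92e-14). Cyclin D2 was low in all preNeu libraries, least so in replicate 3, and cyclin D3 was high in all of them. Cdk6, a kinase partner of D-type cyclins, was at 1429, 1669 and 1145 CPM in proNeu2 and 325, 303 and 406 CPM in preNeu (-2.04 ± 0.11, adjusted p = 2.42e-13). Cdk4, the other partner, was at 347, 347 and 401 CPM in proNeu2 and 90.5, 141 and 250.5 CPM in preNeu (-1.19 ± 0.19). Along the 4 control stages, from Ly6C- GMP to preNeu, Ccnd2 averaged 363 ± 50.9, 325 ± 95.2, 245 ± 54 and 30.9 ± 28.7 CPM (mean ± SD, n = 3 each). Ccnd3 averaged 291 ± 27.9, 363 ± 28.9, 514 ± 37.4 and 2101 ± 293 CPM in the same order, and both cyclins thus stood apart from the earlier stages in preNeu.

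Of 28 genes in the list of E2F factors, cyclins and kinase inhibitors 16 rose and 6 fell (14 and 6 without preNeu replicate 3, 10 and 6 without preNeu replicate 1). E2f2, an activating E2F factor, was at 22.03, 19.2 and 28.02 CPM in proNeu2 and 242, 225 and 212 CPM in preNeu (3.29 ± 0.24, adjusted p = 5.1e-11). E2f7, a repressive one, was at 16.99, 18.4 and 7.22 CPM in proNeu2 and 95.7, 113 and 77.7 CPM in preNeu (2.75 ± 0.36). Cdkn2d, the inhibitor p19 of CDK4 and CDK6, was at 76.1, 74.5 and 64.3 CPM in proNeu2 and 488, 355 and 301 CPM in preNeu (2.41 ± 0.21, adjusted p = 6.55e-10). Mitotic genes and an inhibitor of the G1 kinases were thus higher in the same libraries.

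Genes of the nuclear envelope and chromatin architecture rose in 14 of 30 cases and fell in 3 (median 0.37; 15 and 3 without preNeu replicate 3, 11 and 5 when scaled by totals alone). Lbr, the lamin B receptor, which shapes the lobed neutrophil nucleus, was at 447, 402 and 503 CPM in proNeu2 and 1106, 1433 and 1013 CPM in preNeu (1.39 ± 0.13, adjusted p = 3.05e-09). Syne2, a giant linker protein of the outer nuclear membrane, was at 24.1, 29.2 and 18.3 CPM in proNeu2 and 591, 442 and 248 CPM in preNeu (4.16 ± 0.34, adjusted p = 3.39e-10). Sun2, its partner in the inner membrane, was at 563, 474 and 636 CPM in proNeu2 and 926, 2082 and 1498 CPM in preNeu (1.43 ± 0.22). All 3 genes had library values that did not overlap. The DNA methyltransferase Dnmt3a fell, at 105, 94.3 and 94.5 CPM in proNeu2 and 61.8, 45.4 and 65.7 CPM in preNeu (-0.77 ± 0.16).

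**Figure D4:**
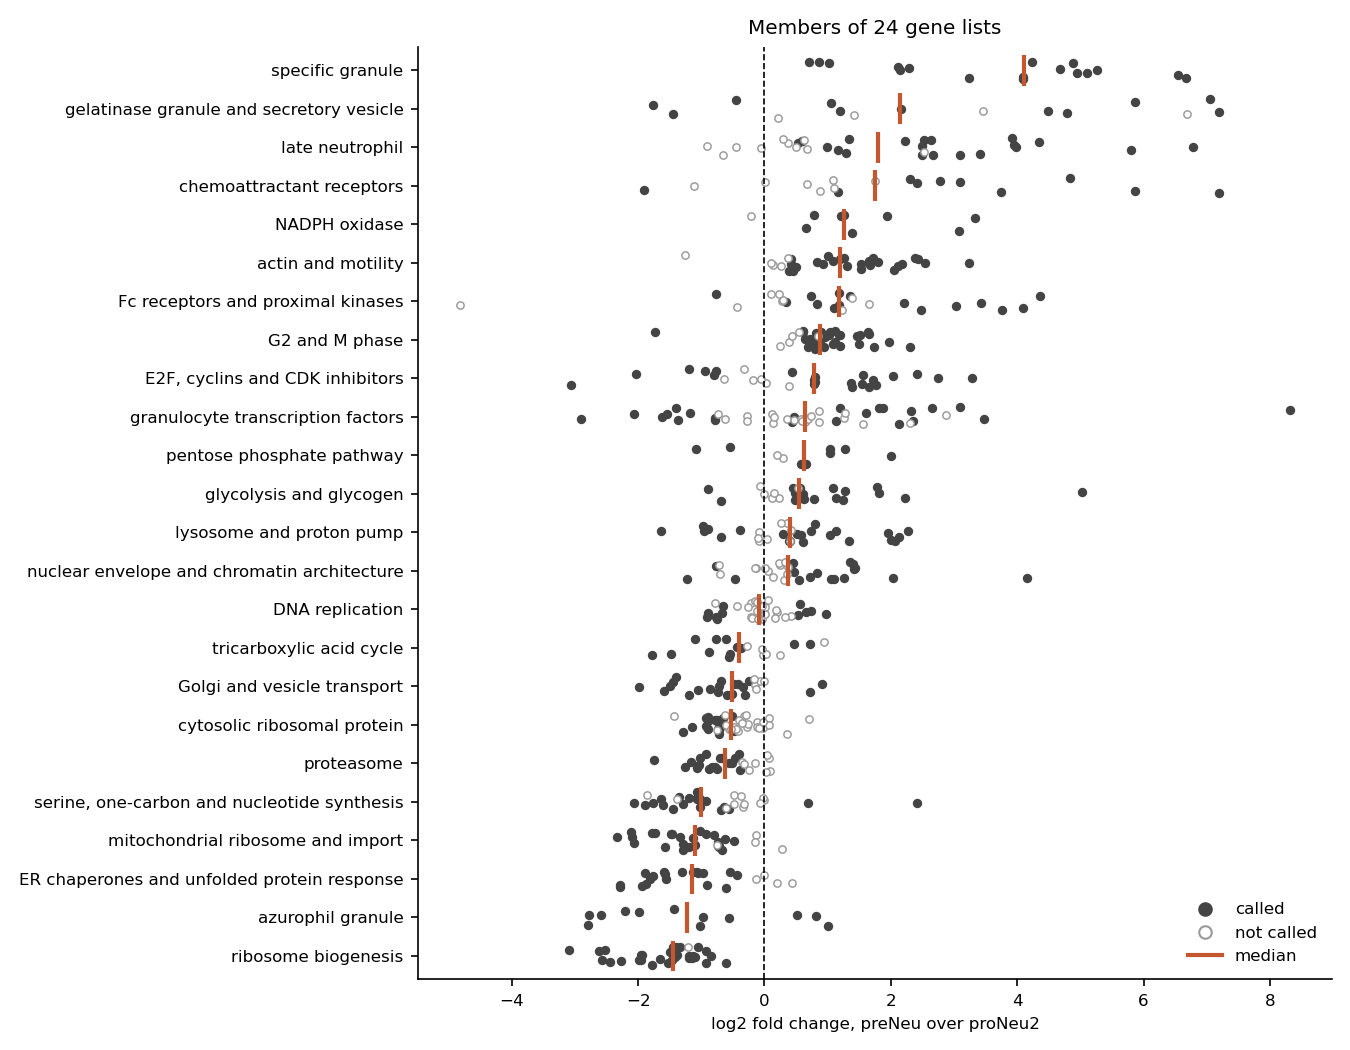
Log2 fold change of preNeu over proNeu2 for every tested member of 24 gene lists, 1 point per gene; filled points were called, open points were not, and the bar is the list's median. The lists are ordered by median, from specific granule genes at 4.10 to ribosome biogenesis genes at -1.45, and the dashed line marks the median of all tested genes at 0.00.

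Genes of the secretory pathway fell. Of 23 endoplasmic reticulum (ER) chaperone and unfolded protein response genes 19 fell and none rose (median -1.14; 19 without preNeu replicate 3). Of 25 translocon and glycosylation genes 21 fell and none rose (median -0.89; 21), and of 25 Golgi and vesicle genes 18 fell and 2 rose (median -0.52; 18 and 2). Hspa5, the ER chaperone BiP, was at 4244, 2840 and 3510 CPM in proNeu2 and 1003, 642 and 1250 CPM in preNeu (-1.87 ± 0.20, adjusted p = 2.94e-08). Pdia3, a disulphide isomerase, was at 2911, 2999 and 3485 CPM in proNeu2 and 1062, 886 and 1195 CPM in preNeu (-1.58 ± 0.11). Spcs2, a signal peptidase subunit, was at 904, 1173 and 1095 CPM in proNeu2 and 356, 218 and 289 CPM in preNeu (-1.88 ± 0.14). None of these genes had overlapping groups. Tmed9, a cargo receptor between ER and Golgi, was at 499.9, 522 and 614 CPM in proNeu2 and 208, 159 and 217 CPM in preNeu (-1.49 ± 0.13). Xbp1, a regulator of the unfolded protein response, was at 849.5, 751 and 757 CPM in proNeu2 and 813, 655 and 669 CPM in preNeu and was not called (-0.14 ± 0.09, adjusted p = 0.264), although it was without preNeu replicate 1 (-0.28, adjusted p = 0.0179).

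Proteasome genes fell in 18 of 26 cases and none rose (18 without preNeu replicate 3). Psmb10, an immunoproteasome subunit, was at 96.3, 106 and 94.05 CPM in proNeu2 and 34.3, 23.4 and 30.1 CPM in preNeu (-1.75 ± 0.14, adjusted p = 2.83e-10). Psma7, of the core particle, was at 298, 303 and 247 CPM in proNeu2 and 123, 93.5 and 141 CPM in preNeu (-1.25 ± 0.14). Lysosome genes rose in 16 of 30 cases and fell in 6 (13 and 5 without preNeu replicate 3). The counts were 11 and 6 without preNeu replicate 2 and 11 and 7 when scaled by totals alone. Ctsh, cathepsin H, was at 32.7, 36.7 and 38.7 CPM in proNeu2 and 198, 181 and 145 CPM in preNeu (2.28 ± 0.20). Gaa, acid glucosidase, fell at 132, 76.7 and 132 CPM in proNeu2 and 20.2, 35.9 and 54.8 CPM in preNeu (-1.64 ± 0.23).

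Mitochondrial ribosome and import genes fell in 25 of 29 cases and none rose (median -1.10; 25 without preNeu replicate 3). Phb, prohibitin, was at 210.0, 242 and 222 CPM in proNeu2 and 42.8, 29.4 and 63.4 CPM in preNeu (-2.33 ± 0.21, adjusted p = 1.4e-09). Nuclear genes of the respiratory chain fell in 14 of 31 cases and rose in 1 (15 and 0 without preNeu replicate 3, 22 and 0 when scaled by totals alone). Uqcrc1, of complex III, was at 1605, 1859 and 1835 CPM in proNeu2 and 957, 694 and 784 CPM in preNeu (-1.12 ± 0.10). The member that rose was Atp5b, the beta subunit of ATP synthase (0.51 ± 0.18), whose call was lost when proNeu2 replicate 2 or preNeu replicate 2 or 3 was left out (0.42, 0.32 and 0.27); without preNeu replicate 1 it was 0.80. Of 13 genes encoded in mitochondrial DNA 6 fell and none rose (4 without preNeu replicate 3, 3 without proNeu2 replicate 2 or preNeu replicate 2, and 2 without proNeu2 replicate 1), and they took 1.75%, 1.73% and 1.35% of counts in proNeu2 against 0.884%, 0.602% and 0.783% in preNeu. mt-Cytb, cytochrome b, was at 8378, 10270 and 8784 CPM in proNeu2 and 4790, 1801 and 2290 CPM in preNeu (-1.63 ± 0.35). mt-Co1, of cytochrome oxidase, was at 4067, 3329 and 1738 CPM in proNeu2 and 3629, 3503 and 3385 CPM in preNeu, overlapping, and was not called (0.20 ± 0.31). Tricarboxylic acid cycle genes fell in 10 of 18 cases and rose in 2 (10 and 2 without preNeu replicate 3). Idh2, mitochondrial isocitrate dehydrogenase, was at 199.6, 184 and 237 CPM in proNeu2 and 24.8, 59.8 and 143 CPM in preNeu (-1.48 ± 0.29; -2.31 without preNeu replicate 3), and was not called when only the 6 libraries were fitted (-1.47, adjusted p = 0.0625).

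Glycolysis and glycogen genes rose in 17 of 25 cases and fell in 2 (median 0.55; 16 and 2 without preNeu replicate 3). Slc2a3, the glucose transporter GLUT3, was at 14.9, 7.86 and 17.9 CPM in proNeu2 and 659, 380.4 and 282 CPM in preNeu (5.02 ± 0.44, adjusted p = 9.56e-10). Pygl, glycogen phosphorylase, was at 271, 248 and 238 CPM in proNeu2 and 865, 1653 and 1036 CPM in preNeu (2.23 ± 0.18). Both were higher in every preNeu library. The members that fell were the phosphofructokinases Pfkl (-0.90 ± 0.14) and Pfkp (-0.69 ± 0.14). In the pentose phosphate pathway, which supplies NADPH, 6 of 10 genes rose and 2 fell (6 and 2 without preNeu replicate 3). G6pdx, its first enzyme, was at 255, 236 and 244 CPM in proNeu2 and 968, 1094 and 887 CPM in preNeu (2.00 ± 0.10, adjusted p = 2.89e-14). Tkt, transketolase, was at 1351, 1026 and 1259 CPM in proNeu2 and 2015, 3762 and 3007 CPM in preNeu (1.27 ± 0.13). Prps1, which makes ribose available for nucleotides, fell at 155, 181 and 178 CPM in proNeu2 and 89.2, 71.3 and 82.96 CPM in preNeu (-1.08 ± 0.14).

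Serine, one-carbon and nucleotide synthesis genes fell in 18 of 31 cases and rose in 2 (median -1.01; 24 and 2 without preNeu replicate 3). Phgdh, the first enzyme of serine synthesis, was at 338, 283 and 415 CPM in proNeu2 and 26.7, 48.6 and 236 CPM in preNeu (-1.76 ± 0.39, adjusted p = 0.000901; -3.22 without preNeu replicate 3), and was not called when only the 6 libraries were fitted (-1.75, adjusted p = 0.0896). Pfas, of purine synthesis, was at 284, 336 and 352 CPM in proNeu2 and 96.1, 54.6 and 114 CPM in preNeu (-1.89 ± 0.18). Replicate 3 was the preNeu library nearest to proNeu2 in all 20 called genes of this list, and in Phgdh it stood far above the other preNeu libraries. Against the list, Mthfd2, a mitochondrial folate enzyme, was at 31.6, 19.9 and 43.9 CPM in proNeu2 and 189, 176 and 142 CPM in preNeu (2.41 ± 0.20, adjusted p = 5.05e-10).

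Haem and iron genes fell in 11 of 26 cases and rose in 3 (11 and 3 without preNeu replicate 3). Alas1, the first enzyme of haem synthesis, was at 3077, 3312 and 2990 CPM in proNeu2 and 1304, 1069 and 1292 CPM in preNeu (-1.36 ± 0.09, adjusted p = 1.15e-11). Cpox, a later enzyme, was at 12.7, 14.4 and 14.6 CPM in proNeu2 and 1.31, 4.77 and 1.96 CPM in preNeu (-2.33 ± 0.34). Hmox1, which breaks haem down, rose, at 3.17, 6.02 and 2.02 CPM in proNeu2 and 20.4, 30.5 and 23.1 CPM in preNeu (2.72 ± 0.62). The groups were apart in these genes. Cholesterol and fatty acid synthesis genes split, with 5 higher and 7 lower of 28 (5 and 8 without preNeu replicate 3). Fasn, fatty acid synthase, was at 117, 66.6 and 155 CPM in proNeu2 and 19.5, 26.2 and 57.1 CPM in preNeu (-1.76 ± 0.27). Fdft1, squalene synthase, was at 18, 16.6 and 17.1 CPM in proNeu2 and 39.6, 73.7 and 45.6 CPM in preNeu (1.62 ± 0.27).

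NADPH oxidase genes, whose product makes superoxide for killing, rose in 8 of 9 cases (8 without preNeu replicate 3). Cybb, the catalytic subunit, was at 666, 726 and 599.9 CPM in proNeu2 and 6858, 5973 and 4009 CPM in preNeu (3.08 ± 0.21, adjusted p = 8.94e-12). Ncf1, the organiser p47phox, was at 344, 271 and 286 CPM in proNeu2 and 804, 1619 and 1049 CPM in preNeu (1.95 ± 0.18). Rac2, the small GTPase of the complex, was at 1261, 1106 and 1202 CPM in proNeu2 and 2945, 3572 and 2857 CPM in preNeu (1.39 ± 0.11). The groups were apart in these genes. Actin and motility genes rose in 26 of 31 cases and none fell (median 1.19; 27 without preNeu replicate 3). Lsp1, an actin-binding protein of leukocytes, was at 45.5, 55.01 and 37.6 CPM in proNeu2 and 499.8, 482 and 312 CPM in preNeu (3.23 ± 0.20, adjusted p = 2.59e-12). Actb, beta-actin, was at 6072, 7149 and 6215 CPM in proNeu2 and 16150, 23220 and 16380 CPM in preNeu (1.52 ± 0.11). Pfn1, profilin, was at 1447, 1635 and 1260 CPM in proNeu2 and 2434, 1270 and 1070 CPM in preNeu and was not called, with replicate 1 the highest preNeu library.

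Adhesion genes rose in 10 of 21 cases and fell in 2 (10 and 4 without preNeu replicate 3). Itgb2, the beta chain shared by leukocyte integrins, was at 361, 317 and 362 CPM in proNeu2 and 2061, 2159 and 1485 CPM in preNeu (2.46 ± 0.14, adjusted p = 2.63e-13). Itgb2l, its relative, was at 101, 60.4 and 66.4 CPM in proNeu2 and 1832, 1486 and 1011 CPM in preNeu (4.25 ± 0.41). Vcam1, an adhesion molecule of the immunoglobulin family, fell at 638, 704 and 571 CPM in proNeu2 and 217, 344 and 205 CPM in preNeu (-1.32 ± 0.38, adjusted p = 0.00853). Chemoattractant receptors rose in 9 of 17 cases and fell in 1 (median 1.75; 9 and 1). C5ar1, the receptor of complement C5a, was at 13.2, 10.1 and 16.2 CPM in proNeu2 and 431, 440.1 and 253 CPM in preNeu (4.83 ± 0.58, adjusted p = 2.2e-07). Cxcr2, a receptor by which neutrophils leave the marrow, was at 10.8, 15.9 and 9.59 CPM in proNeu2 and 84.2, 133 and 94.3 CPM in preNeu (3.10 ± 0.50, adjusted p = 1.83e-05). Cxcr4, the marrow retention receptor, had overlapping groups at 20.97, 29.1 and 19.99 CPM in proNeu2 and 32.6, 21.3 and 16.04 CPM in preNeu and was not called (0.01 ± 0.29, adjusted p = 1). Its SE leaves room for a change in either direction.

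Cytokine and growth factor receptors rose in 13 of 30 cases and fell in 2 (14 and 4 without preNeu replicate 3, 11 and 5 when scaled by totals alone). Csf3r, the receptor of the granulocyte growth factor G-CSF, was at 621, 651 and 653 CPM in proNeu2 and 650.4, 553 and 460.0 CPM in preNeu and was not called (-0.21 ± 0.14, adjusted p = 0.287), but was called when scaled by totals alone (-0.43, adjusted p = 0.0161). Csf2rb, the beta chain of the GM-CSF receptor, was at 146, 150.1 and 183 CPM in proNeu2 and 366, 462 and 462 CPM in preNeu (1.43 ± 0.14). Il1r2, a decoy receptor of interleukin 1, was at 12.5, 22.8 and 17.4 CPM in proNeu2 and 111, 119.6 and 104 CPM in preNeu (2.67 ± 0.48). The chains of the interferon gamma receptor went apart. Ifngr1 was at 1081, 1223 and 1126 CPM in proNeu2 and 379.8, 491 and 537 CPM in preNeu (-1.29 ± 0.15, adjusted p = 1.98e-07). Ifngr2 was at 46.6, 36.95 and 49.8 CPM in proNeu2 and 99.5, 93.3 and 97.4 CPM in preNeu (1.12 ± 0.13, adjusted p = 1.49e-07). The groups did not overlap in either chain.

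NF-kB response genes rose in 10 of 23 cases and fell in 3 (10 and 4 without preNeu replicate 3). Tnf, tumour necrosis factor, was at 0.384, 1.43 and 1.51 CPM in proNeu2 and 15.1, 25.7 and 21.1 CPM in preNeu (4.21 ± 0.62, adjusted p = 5.1e-06). Nfkbiz, a nuclear co-factor of NF-kB, was at 0.672, 2.35 and 1.97 CPM in proNeu2 and 14.3, 18.8 and 22.1 CPM in preNeu (3.46 ± 0.46). Nfkb1, which encodes a subunit, fell at 151, 184 and 181 CPM in proNeu2 and 94.9, 79.9 and 87.5 CPM in preNeu (-0.98 ± 0.16). Interferon response genes were mostly not called, 19 of 30, with 5 higher and 6 lower (3 and 7 when scaled by totals alone, and 3 higher with any proNeu2 library or preNeu replicate 1 left out). Gbp3, a guanylate-binding protein, fell at 29.9, 41.8 and 40.1 CPM in proNeu2 and 1.198, 3.35 and 10.96 CPM in preNeu (-3.10 ± 0.40; -4.05 without preNeu replicate 3). Of 23 JAK, STAT and SOCS genes 7 rose and 1 fell (4 and 2 without preNeu replicate 2 and when scaled by totals alone), with Ptpn6, the phosphatase SHP-1, at 421, 409 and 434 CPM in proNeu2 and 921, 1030 and 838 CPM in preNeu (1.14 ± 0.10, adjusted p = 6.76e-10).

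Pattern recognition and inflammasome genes rose in 13 of 33 cases and fell in 5 (3 fell without proNeu2 replicate 2 or 3). Tlr13, a sensor of bacterial ribosomal RNA, was at 0, 0.204 and 0.202 CPM in proNeu2 and 6.73, 10.6 and 2.35 CPM in preNeu (5.66 ± 1.09). Clec12a, an inhibitory lectin receptor, fell at 2046, 2293 and 1932 CPM in proNeu2 and 1167, 1219 and 1186 CPM in preNeu (-0.81 ± 0.14). Fc receptors and their kinases rose in 14 of 24 cases and fell in 1 (median 1.18; 15 and 2 without preNeu replicate 3). Fgr, a Src family kinase, was at 32.2, 24.4 and 25.2 CPM in proNeu2 and 537, 514 and 346 CPM in preNeu (4.10 ± 0.50). Pirb, an inhibitory receptor, was at 14.7, 1.74 and 9.29 CPM in proNeu2 and 246, 169 and 114 CPM in preNeu (4.36 ± 0.51). Fcgr3, an activating receptor for immunoglobulin G, was the member that fell, at 761, 797 and 614 CPM in proNeu2 and 422, 410.1 and 439 CPM in preNeu (-0.77 ± 0.14, adjusted p = 6.9e-05). The groups were apart in these 3 genes.

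Of 24 BCL2 family and cell death genes 5 rose, 3 fell and 16 were not called, against 3 up and 4 down when scaled by totals alone. Bcl2l11, the killer protein BIM, was at 6.34, 10.97 and 15.4 CPM in proNeu2 and 38.4, 39.8 and 30.5 CPM in preNeu (1.74 ± 0.34). Bax, an executioner of the same family, fell at 28.99, 29.2 and 19.03 CPM in proNeu2 and 10.6, 9.21 and 13.9 CPM in preNeu (-1.22 ± 0.22). Autophagy genes rose in 11 of 20 cases and fell in 4 (10 and 3 without preNeu replicate 3, but 5 and 2 without preNeu replicate 2 and 6 and 4 when scaled by totals alone). Optn, the autophagy receptor optineurin, was at 23.3, 18.6 and 12.6 CPM in proNeu2 and 132, 112 and 71.6 CPM in preNeu (2.53 ± 0.43). Atg12, of the conjugation machinery, fell at 220.4, 288 and 214 CPM in proNeu2 and 106, 81.8 and 128 CPM in preNeu (-1.20 ± 0.16). Of 20 protease inhibitors 6 rose and 4 fell. Cst7, cystatin F, fell at 349, 332 and 267 CPM in proNeu2 and 42.3, 53.95 and 131 CPM in preNeu (-2.08 ± 0.28). Serpinb10, a serpin of bone marrow cells, rose at 4.13, 3.98 and 4.49 CPM in proNeu2 and 39.6, 41.2 and 23.9 CPM in preNeu (3.06 ± 0.40). Of 16 Ly6 and Ms4a membrane protein genes 4 rose and 4 fell. Ms4a3, a marker of granulocyte-monocyte progenitors, fell at 1822, 1833 and 1431 CPM in proNeu2 and 424, 487 and 739 CPM in preNeu (-1.63 ± 0.21). Plaur, the urokinase receptor, rose at 66.9, 69.7 and 100.3 CPM in proNeu2 and 803, 438 and 343 CPM in preNeu (2.74 ± 0.23).

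Markers of other cell types were mostly not called. Of 17 monocyte markers 2 rose and 2 fell, and their summed level was 1310 to 1930 CPM in proNeu2 and 963 to 1860 CPM in preNeu, most of it Ly6c2 (1419, 1058 and 864 CPM in proNeu2 and 655, 1136 and 1295 CPM in preNeu). Without Ly6c2 the sum was 516, 520 and 445 CPM in proNeu2 and 308, 229 and 560 CPM in preNeu, replicate 3 being the highest of the 6. F13a1 was at 322, 348 and 241 CPM in proNeu2 and 37.02, 53.2 and 204 CPM in preNeu, and Tifab was at 139, 128 and 138 CPM in proNeu2 and 24.4, 16.01 and 97.05 CPM in preNeu. Both fell (-1.66 ± 0.36 and -1.62 ± 0.37; -2.77 and -2.76 without preNeu replicate 3) and neither was called when only the 6 libraries were fitted (-1.64, adjusted p = 0.0579 and -1.59, adjusted p = 0.0714). The monocyte markers that rose were Lgals3, galectin 3, at 8.54, 0.918 and 6.76 CPM in proNeu2 and 197, 118 and 116 CPM in preNeu (4.73 ± 0.43), and Ctss, cathepsin S, at 2.304, 1.02 and 4.44 CPM in proNeu2 and 11.1, 7.79 and 11.9 CPM in preNeu (1.96 ± 0.44), which was not called by limma (1.93, adjusted p = 0.126). Ighm, the immunoglobulin mu chain and the most abundant B lineage marker, was at 347, 405 and 363 CPM in proNeu2 and 604, 335 and 831 CPM in preNeu and was not called (0.66 ± 0.51, adjusted p = 0.363). The other B lineage markers summed to 70.2, 137 and 64 CPM in proNeu2 and 35.6, 18.0 and 218 CPM in preNeu, with Igkc at 13.97, 1.15 and 135 CPM in preNeu. Erythroid markers summed to 112 to 165 CPM in proNeu2 and 61.1, 55.4 and 133 CPM in preNeu. Replicate 3 was thus the highest preNeu library in the monocyte, B lineage and erythroid sums, and the part of such RNA in its values was not tested.

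Other lists were low in all 6 libraries, apart from Vcam1, Hdc and Nkg7, which each held most of the sum of their list. Macrophage markers without Vcam1 summed to 36.6 to 62.5 CPM in proNeu2 and 36.9 to 52.3 CPM in preNeu, and dendritic cell and class II markers to 29.0 to 44.9 CPM and 22.0 to 42.1 CPM. Eosinophil markers summed to 92.8 to 124 CPM and 68.3 to 94.1 CPM, basophil and mast cell markers without Hdc to 47.8 to 60.1 CPM and 55.2 to 135 CPM, and megakaryocyte markers to 8.62 to 17 CPM and 5.36 to 15.1 CPM. Hdc itself was at 753, 751 and 780 CPM in proNeu2 and 647, 627 and 576 CPM in preNeu. The source of its RNA was not tested. Of the 12 T and NK markers 6 were at 0 in all 6 libraries, and nearly all of the sum was Nkg7, a granule gene that early myeloid cells also express, at 1485, 1552 and 1179 CPM in proNeu2 and 202, 163 and 297 CPM in preNeu (-2.68 ± 0.20).

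The same step in septic mice was set beside the control step; the steps share no library. Of the 2377 genes higher in control preNeu, 2147 (90.3%) had the same sign in sepsis, 1059 were called in the same direction and 9 in the opposite one. Of the 2683 genes lower in control preNeu, 2418 (90.1%) had the same sign, 1151 were called in the same direction and 26 in the opposite one. In the septic step 3073 of the 18198 tested genes were called in either direction. The median change of the first set was 1.22 in controls and 0.64 in sepsis, and that of the second was -1.18 and -0.63. These genes were chosen on the control values, so a smaller median in other mice is no sign of a smaller step. Over the 7639 genes at 20 CPM or more in at least 1 of the 4 groups, chosen without regard to the step, 79.3% had the same sign in both steps. The SD of their log2 change was 1.1 in controls and 0.9 in sepsis. The Pearson correlation of the steps across these genes, which are not independent, was 0.78. Over all 18198 tested genes it was 0.321 (Spearman's rho 0.458).

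**Figure D5:**
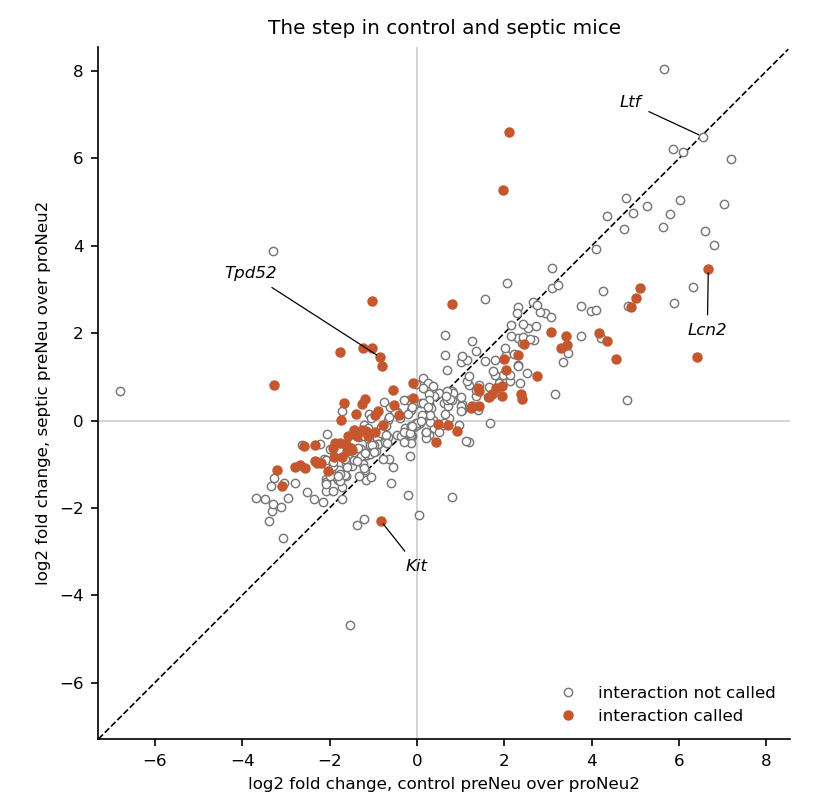
Log2 fold change of preNeu over proNeu2 in septic mice (vertical) against control mice (horizontal) for the named genes, 1 point per gene; filled points had a called interaction, open points did not, and the dashed line marks equal changes. Most points lie where both changes have the same sign, Ltf at 6.54 and 6.50 lies near the line, and Tpd52 at -0.84 and 1.45 lies far above it.

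The difference between the steps was tested as an interaction, called in 648 of 18198 genes (3.56%). Leaving out 1 library moved this count to between 310 (without preNeu replicate 2) and 936 (without preNeu replicate 3), with 374 without proNeu2 replicate 2, 405 without septic proNeu2 replicate 2 and 407 without septic preNeu replicate 2. The 8 genes of at least 20 CPM with the lowest interaction p were Tpd52, Mpo, Pdia3, Cd68, Tnfrsf13b, Ctsc, Pld4 and Gpx3. Mpo was at 29180, 27860 and 27640 CPM in septic proNeu2 and 13950, 14460 and 12310 CPM in septic preNeu, a step of -1.06 against -2.79 in controls (interaction 1.73 ± 0.22, adjusted p = 2.94e-05). Septic proNeu2 lay below every control proNeu2 library, and septic preNeu lay at the level of control preNeu replicate 3. Tpd52, a vesicle trafficking protein, was at 45.03, 43.7 and 40.03 CPM in septic proNeu2 and 120.0, 132 and 99.7 CPM in septic preNeu, against 31.97, 31.7 and 40.2 CPM and 22.8, 15.9 and 19.6 CPM in controls (interaction 2.29 ± 0.20, adjusted p = 6.26e-08). Pdia3 was at 2982, 2545 and 2808 CPM in septic proNeu2 and 2409, 2111 and 2001 CPM in septic preNeu, a step of -0.35 against -1.58. Ctsc, cathepsin C, which activates granule proteases, was at 88.4, 112 and 99.5 CPM and 332, 384 and 231 CPM in sepsis, a step of 1.66 against -1.02. In sepsis Tpd52 and Ctsc thus stood higher in preNeu, where controls stood lower, and the fall of Mpo and Pdia3 was smaller.

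The specific granule genes kept their direction in sepsis, 17 of 17 with a positive step, a median of 3.04 and 5 called interactions. Lcn2 was at 214, 320.5 and 328 CPM in septic proNeu2 and 3344, 2751 and 3526 CPM in septic preNeu, so that its proNeu2 level was above that of controls (interaction -3.19 ± 0.43, adjusted p = 6.4e-05). Ltf was at 129, 127 and 125 CPM and 15370, 9718 and 9339 CPM in sepsis, lower than controls at both stages, with an interaction of -0.04 ± 0.59 that was not called. In the septic preNeu libraries the monocyte markers without Ly6c2 summed to 1900, 3190 and 1810 CPM, against 865, 1060 and 924 CPM in septic proNeu2 and 308, 229 and 560 CPM in control preNeu. Cd68 was at 46.2, 59.4 and 38.6 CPM and Pld4 at 101, 126 and 75.8 CPM in septic preNeu. The part of monocyte RNA in the interactions was not tested.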

How the data were processed

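RNA of sorted bone marrow cells was made into SMART-Seq v2 and Nextera XT libraries and sequenced in pairs, per the labels' protocols. The deposited table holds 1 count per gene and library, made by the authors with STAR and featureCounts on GRCm38, per the submitters' processing notes; versions, strand setting and the handling of multi-mapping reads are not given in the sources used here, so reads of paralogs and of overlapping or antisense genes could be shared. Of the deposited counts from 1 to 10, 76.2% were even, so both mates of a pair may have been counted. The counts were fitted with edgeR 4.0.16 in R 4.3.3: TMM scaling, filterByExpr on the groups, robust quasi-likelihood dispersion over all 33 libraries in 11 groups, and the contrasts preNeu minus proNeu2 and its difference between sepsis and control. p-values were adjusted over 18198 genes, and genes with adjusted p under 0.05 were called. The procedure was tested on simulated data. Shares of counts were compared by an exact permutation test. Nothing in the labels says that replicates of a group shared an animal or a day. Promoter windows are from RefSeq on GRCm38.p6.

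Genes were named by a rule: the 12 largest rises and 12 largest falls among called genes of at least 20 CPM in the higher group whose libraries did not overlap, leaving out predicted genes, pseudogenes, receptor segments and mitochondrial RNAs; in each list the 4 largest called rises and 4 largest called falls of at least 5 CPM, the most abundant member not called, and members against the list's majority or not called where these were 5 or fewer; a panel of 30 lineage genes; the 8 lowest interaction p among genes of at least 20 CPM; the 2 most abundant members of each list of other cells; and the 3 genes of the highest CPM in each group. Not all are printed, and some results are not reported here. Actb, Cdc20, Hspa5, Ifngr2, Lbr and Padi4 fall outside it and were chosen after their values were seen. The comparison, the lists and the rules were chosen with earlier results of these data known. Alternatives were DESeq2 1.42.0, limma 3.58.1, a minimum fold change of 1.5, other scaling and filters, fewer libraries and halved counts.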

Additional observations from a re-analysis of the deposited data

Results flagged for a closer look

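For 58 of the 177 genes named above the step from proNeu2 to preNeu differed between septic and control mice. The test was edgeR's quasi-likelihood interaction test at an adjusted p under 0.05, which called 3.56% of all 18198 genes tested. Values here are the septic minus the control log2 change. Among azurophil granule and related genes the difference was 1.73 for Mpo, 2.02 for Elane, 1.22 for Srgn, 2.68 for Ctsc, 1.66 for Nkg7 and 1.08 for Ms4a3. Among specific granule and late neutrophil genes it was -3.19 for Lcn2, -2.07 for Cd177, -2.28 for Chil3, -1.48 for S100a8, -1.73 for Padi4 and -0.82 for Anxa2, and it was 1.64 for S100a1 and 0.53 for Anxa3.

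Differences of genes of ribosome production and translation were 1.60 for Nop16, 1.48 for Utp20, 1.28 for Eif3b and 0.87 for Nars. Those of the secretory pathway and the proteasome were 1.23 for Pdia3, 1.36 for Spcs2, 0.81 for Tmed9, 1.24 for Psmb10 and 1.04 for Psma7. Mitochondrial and haem genes gave 1.41 for Phb, 0.77 for Uqcrc1, 1.01 for Alas1 and 1.79 for Cpox.

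Genes of the cell cycle and nucleus gave -1.11 for Ccna2, -0.87 for Ccnd3, -1.63 for E2f2, -1.74 for E2f7, -0.78 for Lbr, -2.17 for Syne2 and -1.09 for Sun2, and 1.75 for Pttg1 and 0.87 for Cdk6. Genes of metabolism and effector function gave -2.23 for Slc2a3, -0.60 for G6pdx, -0.93 for Tkt, -1.92 for Mthfd2, -1.05 for Cybb, -1.15 for Ncf1, -0.65 for Rac2, -0.70 for Itgb2 and -0.75 for Csf2rb.

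The other genes were -1.46 for Kit, 1.56 for Zeb2, 3.32 for Cd14, 0.68 for Fcgr3, 3.32 for Ctss, 2.06 for F13a1, 2.08 for Ubxn11, 4.08 for Ms4a6b, 2.29 for Tpd52, 2.91 for Cd68, 3.76 for Pld4, 1.68 for Tnfrsf13b and 2.04 for Gpx3.

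Of the 58 differences, 37 were called in each of the 12 fits that left out 1 library of the 4 groups, and none changed sign in any of them. The other 21 lost their call in at least 1 of these fits. Losses in 5 to 10 of the 12 fits were found for Cd177, S100a8, Sun2, Csf2rb, Zeb2, Srgn, E2f7, Cybb, Itgb2, Fcgr3, Ms4a3 and Cpox, and the adjusted p of Sun2 and S100a8 reached 0.249 and 0.227. Losses in 1 to 3 fits were found for Lbr, F13a1, Chil3, Pttg1, Slc2a3, G6pdx, Rac2, Ubxn11 and Utp20. The difference of S100a8 was -0.96 without preNeu replicate 2, and that of F13a1 ranged from 1.70 to 3.17. With only the 12 libraries of both steps 24 of the 58 were not called, with a minimum fold change of 1.5 39 were not, without the filter on low counts 11, and with limma or without the shallow libraries 3 each. The genes were named in part for their control change. They include the 8 picked for the lowest interaction p, Tpd52, Mpo, Pdia3, Cd68, Tnfrsf13b, Ctsc, Pld4 and Gpx3. The calls of these 8 follow from that choice, and all 8 are among the 37. Monocyte markers were higher in septic preNeu, as given above. The part of the control change or of monocyte RNA in these differences was not tested.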

How the results depend on the processing

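No paired analysis was possible because the labels carry no replicate numbers and the numbers used here follow accession order. A minimum fold change of 1.5 left 2473 calls, 1189 higher and 1284 lower, and 71 interactions. With only the 6 libraries compared, 3521 genes were called, 1676 of them lower; with only the 12 libraries of both steps there were 239 interactions. DESeq2 gave 1184 and limma 1261 interactions against 648. The other alternatives gave 4417 to 5795 calls and 455 to 824 interactions. Leaving out 1 library gave 4031 to 5146 calls, 1815 to 2345 higher and 2216 to 2801 lower, and 310 to 936 interactions. Cd34 changed from 0.04 to -2.80 with limma and to -1.99 without the shallow libraries, and leaving out 1 library gave -1.99 (without preNeu replicate 3) to 0.69; the cause was not tested. Of 177 named genes, 159 were called, and 129 of these were called under every alternative with a value. The fit to only the 6 libraries ended the calls of 16 named genes, among them, beside those given above, Gars (0.38, adjusted p = 0.236), Atp5b (0.51, adjusted p = 0.275), Ctsc (-0.99, adjusted p = 0.0678) and Pld4 (-0.87, adjusted p = 0.299), and added Fbl (-1.19, adjusted p = 0.043). Among the named genes, scaling by totals alone ended the calls of Cars, Gars and Atp5b and added those of Fbl, Xbp1 and Csf3r. Shares of counts in the lists kept their direction under both other totals and without preNeu replicate 3. The depth of preNeu replicate 3, 5517734 counts, limits genes of low level. Halving the counts of every library, run because both mates of a pair may have been counted, left 5336 calls. It does not change the depth of replicate 3 against the others. The replicates are 3 per group, so a gene without a call may still differ.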
